A study of Homo sapiens with 6 samples.

Results

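The genes of 10 myeloid transcription factors were followed here in RNA bound by the J2 antibody, which recognises double-stranded RNA. They were SPI1, IRF8, KLF4, CEBPA, CEBPB, CEBPE, GFI1, MYB, MYC and RUNX1, taken by symbol from the deposited gene table, 10 of 60675 identifiers, and each symbol matched 1 identifier. The RNA came from OCI-AML2, an established human acute myeloid leukaemia line grown in culture, after transduction with a short hairpin RNA construct. One group of 3 libraries carried a knockdown of SUPV3L1 (SUV3), the RNA helicase of the mitochondrial degradosome, and the other group of 3 a knockdown of PNPT1, the exoribonuclease (PNPase) that works with it. The series' design text calls the 3 libraries of a group biological replicates, and the meaning of the numbers in their titles was not stated in the sources used here. Neither unmodified cells nor RNA taken ahead of the precipitation was analysed here, so each comparison is SUPV3L1 knockdown against PNPT1 knockdown, and a difference in expression and one in precipitation cannot be told apart. In bulk RNA, fewer cells of a type and less RNA per cell cannot be told apart either.

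Myeloid cells are specified by a small set of transcription factors that act in combination. PU.1, encoded by SPI1, opens myeloid enhancers and works with C/EBP factors, which direct granulocytic genes, and with IRF8 and KLF4, which direct monocytic ones. GFI1 represses monocytic genes in favour of neutrophil fate, while RUNX1, MYB and MYC support progenitors and their proliferation and often stay high in leukaemic blasts.

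Factors of this kind are known to regulate each other's genes, so the sequence at their start sites is given first. Promoter windows of 300 bases (RefSeq, GRCh38.p14, 250 bases before and 50 after a start site) were found for 8 of the 10 genes, 12 windows in all. SPI1 and MYC had none. Windows of 3 genes are printed 5′ to 3′ on the gene's strand: IRF8, which had the largest fold change, CEBPE, which varied most between libraries of a group, and CEBPA, whose start lies beside that of its divergent neighbour CEBPA-AS1. Capitals mark matches, on either strand, to GAGGAA (PU.1 core), TTGCG (C/EBP core), CCAAT (the CCAAT box), TGTGGT (RUNX), CACGTG (the E-box bound by MYC), AACTG and AACGG (MYB) and CACCC (KLF).
IRF8, chr16:85902580-85902879, plus strand: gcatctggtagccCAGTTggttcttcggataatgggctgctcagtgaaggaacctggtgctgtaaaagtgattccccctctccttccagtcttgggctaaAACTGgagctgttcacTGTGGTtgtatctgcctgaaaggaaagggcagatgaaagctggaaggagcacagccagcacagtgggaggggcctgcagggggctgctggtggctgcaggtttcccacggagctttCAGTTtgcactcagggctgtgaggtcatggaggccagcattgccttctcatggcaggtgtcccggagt
CEBPE, chr14:23119206-23119505, minus strand: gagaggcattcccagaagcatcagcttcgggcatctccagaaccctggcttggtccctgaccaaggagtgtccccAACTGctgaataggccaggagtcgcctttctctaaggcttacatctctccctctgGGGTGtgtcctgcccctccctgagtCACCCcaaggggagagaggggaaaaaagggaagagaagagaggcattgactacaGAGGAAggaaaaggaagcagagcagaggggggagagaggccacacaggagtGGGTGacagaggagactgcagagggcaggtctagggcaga
CEBPA, chr19:33302485-33302784, minus strand: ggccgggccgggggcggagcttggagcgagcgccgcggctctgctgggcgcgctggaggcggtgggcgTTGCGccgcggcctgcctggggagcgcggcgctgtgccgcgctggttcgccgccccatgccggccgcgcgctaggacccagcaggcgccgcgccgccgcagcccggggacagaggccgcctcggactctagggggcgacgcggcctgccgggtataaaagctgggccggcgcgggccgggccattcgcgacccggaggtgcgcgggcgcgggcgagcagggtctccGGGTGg
The start site of this IRF8 window lies 4027 bases inside the gene span of GENCODE 29, so it is an internal start and not the gene's 5′ end, and that of CEBPE lies 361 bases inside. Windows not printed here also had internal starts, those of RUNX1 (1115968 bases inside), KLF4 (713) and GFI1 (3062 and 777). The printed IRF8 window held 3 AACTG matches and 1 TGTGGT match, with no GAGGAA. IRF8 had a second window (85902765 to 85903064), which overlaps the first and held 2 AACTG matches and none of the other motifs. The CEBPE window held 1 GAGGAA, 1 AACTG and 3 CACCC matches, and the CEBPA window, at 80.7% G and C, held 1 TTGCG and 1 CACCC. Of the 12 windows, 5 held GAGGAA, against 27.9% of all 35116 windows in the RefSeq table, 2 held TGTGGT (13.1% of all) and 8 held CACCC (59.9%). AACTG was found in 5 (39.7%), CCAAT in 4 (34.6%), TTGCG in 2 (19.8%), AACGG in 1 (19.7%) and CACGTG in 1, of KLF4 (7.26%). The CEBPB windows overlap as well and share the same CCAAT, so the 4 windows with CCAAT belong to 3 genes. The 5 with AACTG belong to 4 genes and the 8 with CACCC to 6. No motif searched lies within another. A match describes the letters of a window and is no evidence of binding.

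Counts assigned to genes numbered between 9378264 and 11361371 in SUPV3L1 knockdown libraries and between 5852090 and 10464630 in PNPT1 knockdown libraries. PNPT1 knockdown replicate 3 stood apart, with the fewest counts, 16620 genes detected against 20765 to 22393 in the other libraries, and the lowest factor of the trimmed mean of M-values (TMM) scaling, 0.669. Levels are TMM-scaled counts relative to library size (CPM) unless stated. SUPV3L1 RNA lay between 9.42 and 12.3 CPM for SUPV3L1 knockdown and between 11.5 and 25.8 CPM in PNPT1 knockdown, and PNPT1 RNA between 21.4 and 36.3 CPM and between 7.66 and 18.9 CPM in the same order of groups. For both, the adjusted p was 0.898 (edgeR quasi-likelihood test, Benjamini-Hochberg). The summed level of 6 markers of myeloid or leukocyte identity was 357 to 714 CPM for SUPV3L1 knockdown and 364 to 744 CPM in PNPT1 knockdown, most of it from CD45. Of these 6, CD45 (PTPRC) and CD33 were present in each library, at 282 to 607 CPM and 28.2 to 59.2 CPM, as was ITGB2, at 26.5 to 128 CPM, while MPO was at 0.822 to 7.07 CPM and ANPEP had 0 to 8 counts a library. CD68 had 0 to 3 counts a library but a deposited FPKM of 17.5 to 57.0 in SUPV3L1 knockdown and 7.98 to 18.8 in PNPT1 knockdown, so its count does not show that the marker was absent. Of 9 erythroid markers, 6 had 0 counts in all libraries, and their summed level was at most 0.740 CPM for SUPV3L1 knockdown and 0.437 CPM in PNPT1 knockdown. Summed T cell markers reached at most 3.45 CPM, B cell markers 5.31 CPM and megakaryocyte markers 3.49 CPM in any library.

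All 10 genes passed the expression filter. None was called by edgeR (quasi-likelihood test, Benjamini-Hochberg adjustment over 13275 genes, threshold 0.05), where 0 genes (0%) were called in all. DESeq2 called 18 genes over the whole table, and the 10 factors were not among them. At an unadjusted p under 0.05 there was 1 of the 10, IRF8, where 4.09% of all genes tested lay under that value. The groups did not overlap for IRF8 and SPI1, both higher in SUPV3L1 knockdown, which is 2 of 10 where 8.56% of all genes tested did not overlap (4.62% higher and 3.94% lower in SUPV3L1 knockdown). Of the log2 fold changes, 7 were above 0 and 3 below, with a median of 0.31, beside a median of 0.0094 over all genes tested, of which 50.7% lay above 0. Mitochondrially encoded genes took 33.6% to 42.0% of the counts in SUPV3L1 knockdown and 11.3% to 26.6% in PNPT1 knockdown, also without overlap. Scaled without these genes, IRF8 and SPI1 were again the 2 of 10 whose groups did not overlap.

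**Figure D1:**
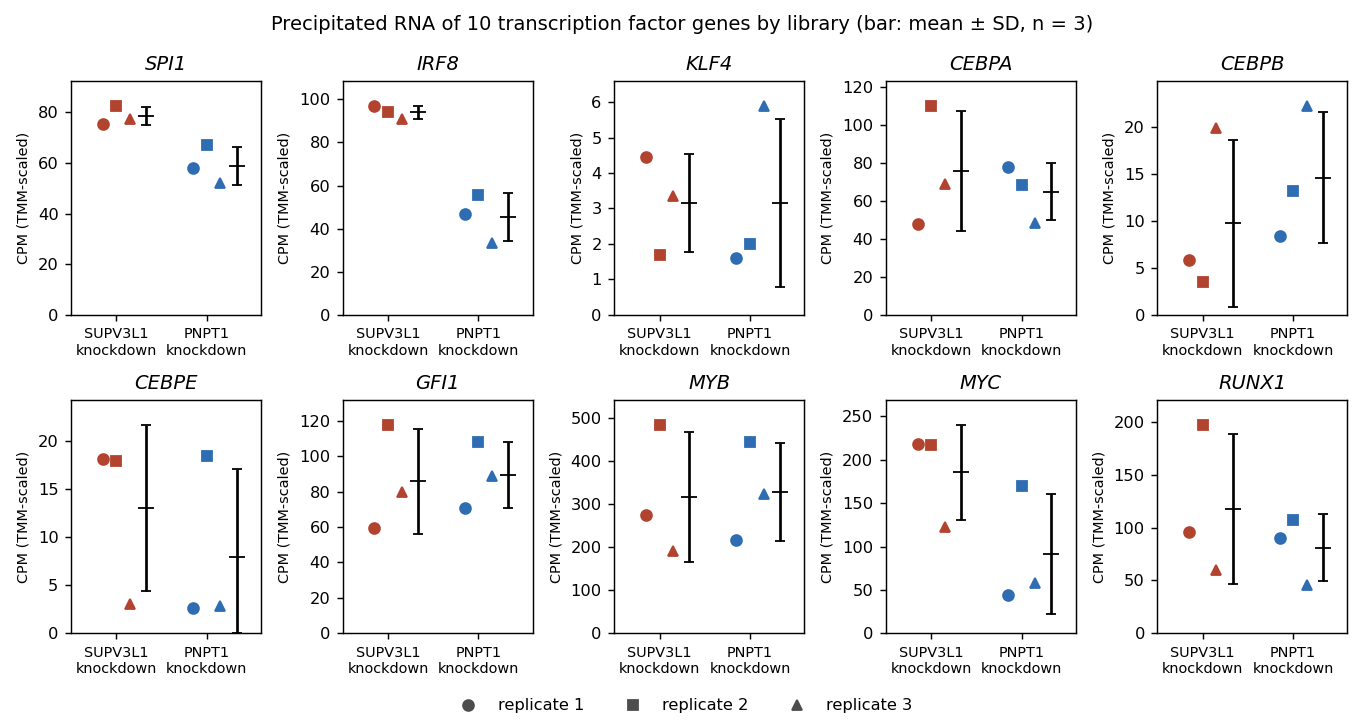
TMM-scaled CPM of the 10 transcription factor genes in each library (vertical axes, linear from 0), SUPV3L1 knockdown in red and PNPT1 knockdown in blue, with replicates 1, 2 and 3 as circle, square and triangle and the black bar giving mean ± SD (n = 3, drawn no lower than 0). The 3 IRF8 points of SUPV3L1 knockdown, 91.0 to 96.9 CPM, lie above those of PNPT1 knockdown, 33.5 to 55.7 CPM, and CEBPE splits into high and low libraries within both groups.

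IRF8 (ENSG00000140968, chromosome 16, 85898803 to 85922609, plus strand), interferon regulatory factor 8, is a partner of PU.1 that favours monocytes and dendritic cells over granulocytes. IRF8 was at 96.9, 94.0 and 91.0 CPM in SUPV3L1 knockdown replicates 1, 2 and 3, against 46.8, 55.7 and 33.5 CPM in PNPT1 knockdown replicates 1, 2 and 3. These values rest on 1178, 997 and 840 counts in SUPV3L1 knockdown and on 470, 638 and 131 counts in PNPT1 knockdown. The groups were separate, with the SUPV3L1 knockdown libraries close together. IRF8 averaged 93.9 ± 2.95 CPM for SUPV3L1 knockdown and 45.3 ± 11.2 CPM in PNPT1 knockdown (SD, n = 3 each), a log2 fold change of 1.05 ± 0.30 (SE), or 2.07-fold. Its unadjusted edgeR p of 0.00582 ranked 44 among 13275 genes, and its Benjamini-Hochberg adjusted p was 0.898. Leaving out PNPT1 knockdown replicate 3, which held the lowest value, gave 0.87, and leaving out PNPT1 knockdown replicate 2 gave 1.21. Its adjusted p lay between 0.243 and 0.999 over 14 alternatives. In deposited FPKM, which is scaled to gene length and library depth, IRF8 was at 14.4, 14.0 and 13.0 in SUPV3L1 knockdown and at 8.25, 8.62 and 2.81 in PNPT1 knockdown, again without overlap. Outside the 10 genes, the profiles over the 6 libraries closest to that of IRF8 were those of PANX1 and ADPRHL2. Their root mean square differences of centred log2 CPM were 0.10 and 0.11, beside a median of 0.71 over 9728 candidate genes. They were picked as the closest, so lying below the median follows from the selection.

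SPI1 (ENSG00000066336, chromosome 11, 47354860 to 47378576, minus strand) encodes PU.1, the ETS-family factor required for myeloid and B lymphoid development. Its level was 75.5, 82.4 and 77.3 CPM with SUPV3L1 knockdown, against 58.0, 66.9 and 51.9 CPM with PNPT1 knockdown. The groups did not overlap, but the gap was smaller than for IRF8: the log2 fold change was 0.41 ± 0.28 (SE), with an unadjusted edgeR p of 0.171 and a Benjamini-Hochberg adjusted p of 0.898. In CPM, SPI1 was the steadiest of the 10 genes, spanning 1.59-fold over the 6 libraries. Its within-group SD was 0.14 in log2 CPM, where the median of all genes tested was 0.53. In deposited FPKM SPI1 ran from 11.3 to 31.0, a wider range than that of GFI1 (10.8 to 26.6). USP19 and ZDHHC5 had the closest profiles, both at a root mean square difference under 0.06 (0.054 and 0.055). Among the 10 genes IRF8 was the closest to SPI1, at 0.35.

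The number of IRF8 counts per SPI1 count, a ratio within a library that no scaling changes, was 1.28, 1.14 and 1.18 in SUPV3L1 knockdown and 0.806, 0.833 and 0.645 in PNPT1 knockdown, with no overlap. The IRF8 ratio was higher in each SUPV3L1 knockdown library for 3 of the other 9 factors, SPI1, CEBPA and GFI1. The same held against 56.4% of the other genes tested, so 3 of 9 was no higher than the background. The ratio to GFI1, which opposes IRF8 in the choice between monocyte and neutrophil, was 1.63, 0.798 and 1.14 in SUPV3L1 knockdown and 0.659, 0.516 and 0.376 in PNPT1 knockdown. For 3 libraries against 3, an exact permutation test of such a ratio cannot give a p below 0.1. The ratios were chosen after the values were seen.

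KLF4 (ENSG00000136826, chromosome 9, 107484852 to 107490482, minus strand), a zinc finger factor of monocyte differentiation, was the rarest of the 10. It had 54, 18 and 31 counts in the SUPV3L1 knockdown libraries and 16, 23 and 23 counts in the PNPT1 knockdown libraries, or 4.44, 1.70 and 3.36 CPM and 1.59, 2.01 and 5.89 CPM. Both groups averaged 3.16 CPM, and the log2 fold change of 0.07 ± 0.66 (SE) was far within its standard error. It was -0.28 without replicate 1 of either knockdown and -0.19 without PNPT1 knockdown replicate 2. ROMO1 and SNORA71D had the closest profiles (root mean square differences 0.18 and 0.19).

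**Figure D2:**
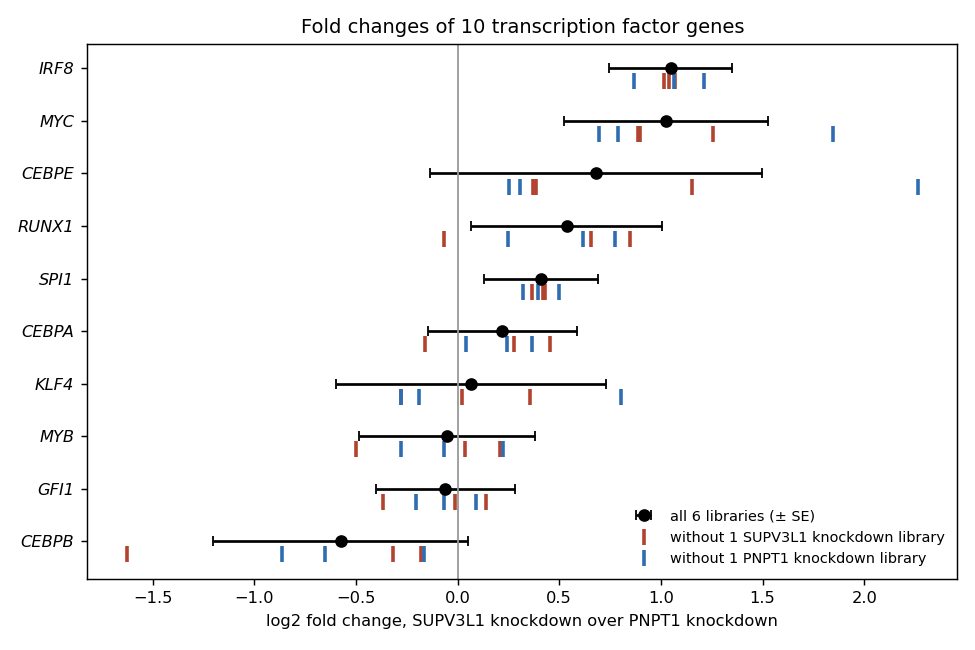
Log2 fold changes of the 10 genes, SUPV3L1 knockdown over PNPT1 knockdown, on the horizontal axis, with black points and bars for edgeR's estimate ± SE from all 6 libraries and ticks for the estimate with 1 library left out (red, a SUPV3L1 knockdown library; blue, a PNPT1 knockdown library). IRF8, MYC, SPI1 and CEBPE stay above 0 and CEBPB below 0 in each case, with IRF8 between 0.87 and 1.21, whereas the ticks of RUNX1, CEBPA, KLF4, MYB and GFI1 lie on both sides of 0.

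The C/EBP factors are basic leucine zipper proteins, of which C/EBPα starts granulocytic differentiation, C/EBPβ takes part in emergency granulopoiesis and in monocytes and macrophages, and C/EBPε serves late neutrophil maturation. None passed the test. CEBPA (ENSG00000245848, chromosome 19, 33299934 to 33302564, minus strand) stood at 48.1, 110.1 and 69.2 CPM with SUPV3L1 knockdown, against 77.9, 68.4 and 48.6 CPM in PNPT1 knockdown. The PNPT1 knockdown libraries lay within the range of the SUPV3L1 knockdown ones, and the log2 fold change of 0.22 ± 0.37 (SE) was -0.16 without SUPV3L1 knockdown replicate 2, the highest library.

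CEBPB (ENSG00000172216, chromosome 20, 50190734 to 50192689, plus strand) stood at 5.84, 3.49 and 19.9 CPM with SUPV3L1 knockdown, against 8.46, 13.2 and 22.3 CPM in PNPT1 knockdown. It had the lowest of the 10 log2 fold changes, -0.58 ± 0.63 (SE), with an unadjusted edgeR p of 0.381. Replicate 3 of either group held its highest values, and without SUPV3L1 knockdown replicate 3 its groups no longer overlapped and the log2 fold change was -1.63.

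CEBPE (ENSG00000092067, chromosome 14, 23117304 to 23119616, minus strand) stood at 18.1, 17.9 and 3.03 CPM with SUPV3L1 knockdown, against 2.59, 18.4 and 2.81 CPM in PNPT1 knockdown. It was thus near 18 CPM in SUPV3L1 knockdown replicates 1 and 2 and in PNPT1 knockdown replicate 2, and near 3 CPM in the other libraries, a span of 7.12-fold that crosses the knockdowns. The counts behind this were 220, 190 and 28 in SUPV3L1 knockdown and 26, 211 and 11 in PNPT1 knockdown. Its within-group SD of 1.49 in log2 CPM was the highest of the 10. The log2 fold change was 0.68 ± 0.82 (SE) with all libraries and 2.26 without PNPT1 knockdown replicate 2. SGSM2 and ANKRD18A had the closest profiles to CEBPA (0.11 and 0.14), DPM3 and VEGFA to CEBPB (0.35 and 0.39), and OAF and LRP8 to CEBPE (0.30 and 0.38), all as root mean square differences.

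GFI1 (ENSG00000162676, chromosome 1, 92474762 to 92486876, minus strand), a zinc finger repressor needed for neutrophil development, stood at 59.4, 118 and 79.8 CPM with SUPV3L1 knockdown, against 71.0, 108 and 89.1 CPM in PNPT1 knockdown. Replicate 2 was the highest library in both groups. The means, 85.7 ± 29.6 CPM for SUPV3L1 knockdown and 89.3 ± 18.5 CPM in PNPT1 knockdown (SD, n = 3 each), lay closer together than the replicates of either group. Its log2 fold change of -0.06 ± 0.34 (SE) was 0.02 when scaled by library totals alone and 0.10 in FPKM, and it was above 0 too without SUPV3L1 knockdown replicate 1 (0.14) or PNPT1 knockdown replicate 2 (0.09). SOX12 and PHF7 had the closest profiles (0.073 and 0.089), and MYB was the closest of the 10 genes, at 0.32.

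MYB (ENSG00000118513, chromosome 6, 135181315 to 135219173, plus strand) encodes the progenitor factor c-Myb. MYB was at 275, 485 and 192 CPM with SUPV3L1 knockdown, against 218, 446 and 324 CPM with PNPT1 knockdown, with replicate 2 highest in both groups, as for GFI1. The log2 fold change was -0.05 ± 0.43 (SE), and 0.05 when scaled by library totals alone or in FPKM. Leaving out single libraries gave values between -0.50 (SUPV3L1 knockdown replicate 2 left out) and 0.22 (PNPT1 knockdown replicate 2 left out). The level moved 2.53-fold over the 6 libraries while the group means, 318 ± 151 CPM for SUPV3L1 knockdown and 329 ± 114 CPM in PNPT1 knockdown (SD, n = 3 each), were close. PIEZO1 and RHOT2 had the closest profiles (0.12 and 0.13).

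RUNX1 (ENSG00000159216, chromosome 21, 34787801 to 36004667, minus strand) is the DNA-binding subunit of core-binding factor. It was at 95.6, 197 and 60.3 CPM with SUPV3L1 knockdown, against 90.3, 107 and 45.8 CPM in PNPT1 knockdown. The log2 fold change of 0.54 ± 0.47 (SE) rested on SUPV3L1 knockdown replicate 2, since it was -0.065 without that library. SNAPC4 and BIN3 had the closest profiles (0.16 and 0.19).

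MYC (ENSG00000136997, chromosome 8, 127735434 to 127741434, plus strand), the driver of ribosome production and cell growth, had the second largest fold change. It was at 218, 217 and 123 CPM with SUPV3L1 knockdown, against 44.7, 170 and 58.3 CPM in PNPT1 knockdown. PNPT1 knockdown replicate 2 lay above SUPV3L1 knockdown replicate 3, so the groups overlapped. MYC averaged 186 ± 54.8 CPM for SUPV3L1 knockdown and 91.1 ± 69.0 CPM in PNPT1 knockdown (SD, n = 3 each). The log2 fold change was 1.03 ± 0.50 (SE), with an unadjusted edgeR p of 0.0677 and a Benjamini-Hochberg adjusted p of 0.898. Without PNPT1 knockdown replicate 2 it was 1.85 and the groups no longer overlapped, and without PNPT1 knockdown replicate 1 it was 0.70. NOP2 had the closest profile (root mean square difference 0.14).

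**Figure D3:**
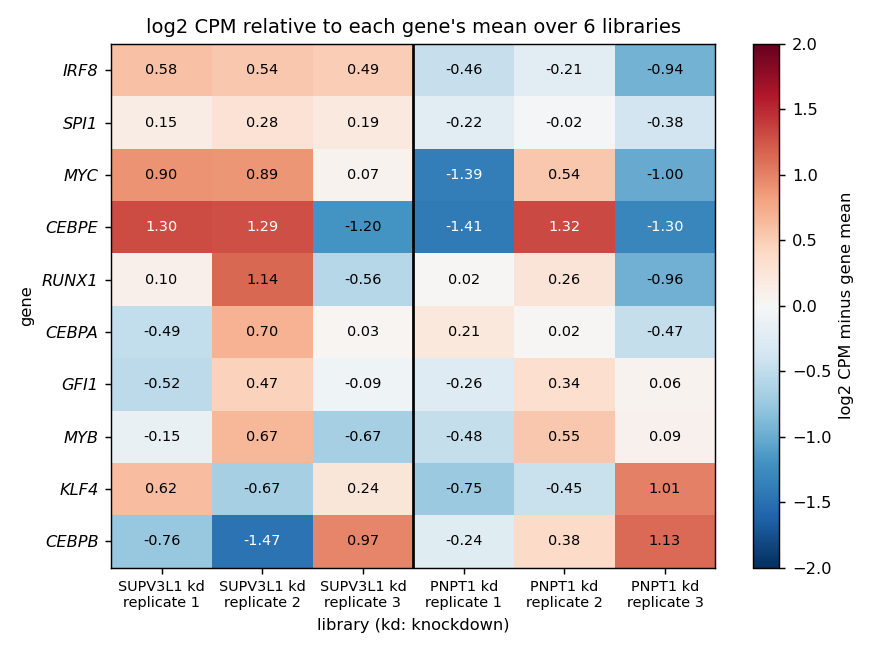
Log2 CPM of the 10 genes (vertical axis) in the 6 libraries (horizontal axis, SUPV3L1 knockdown left of the black line and PNPT1 knockdown right of it) after subtracting each gene's mean, in red above and in blue below that mean. IRF8 and SPI1 change sign at the line, while CEBPE is at 1.30, 1.29 and 1.32 in SUPV3L1 knockdown replicates 1 and 2 and PNPT1 knockdown replicate 2 and at -1.20 or lower elsewhere.

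Some libraries stood high or low for several of the 10 genes. Over all genes tested, the most alike pair of libraries crossed the knockdowns: replicate 2 of SUPV3L1 knockdown and replicate 2 of PNPT1 knockdown (Pearson r of log2 CPM 0.976). SUPV3L1 knockdown replicate 3 and PNPT1 knockdown replicate 1 were the next most alike, at 0.955, while pairs within a group lay between 0.873 and 0.950. SUPV3L1 knockdown replicate 2 held the highest level of 5 of the 10, SPI1, CEBPA, GFI1, MYB and RUNX1, where 18.3% of all genes tested were highest in that library. PNPT1 knockdown replicate 3 held the lowest level of 3, SPI1, IRF8 and RUNX1, where 36.4% of all genes tested were lowest there. Without PNPT1 knockdown replicate 3 the groups of the 8 genes other than IRF8 and SPI1 still overlapped. Those of IRF8 and SPI1 remained separate, but dropping a library cannot make separate groups overlap, apart from small changes in scaling. Without SUPV3L1 knockdown replicate 3 or PNPT1 knockdown replicate 2 the number of genes without overlap was 4. MYC was added in both cases, CEBPB in the first and CEBPE in the second. Groups with fewer libraries separate more easily, and the share of all genes tested without overlap was not computed for these fits. In all, 6 of the 10 had a within-group SD of log2 CPM above the median of all genes tested, CEBPB, CEBPE, KLF4, MYB, MYC and RUNX1.

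Levels of different genes were compared per length, in deposited FPKM averaged over the 6 libraries. The order was MYB (39.0 ± 17.6, SD, n = 6 libraries), MYC (36.6 ± 21.9), SPI1 (24.7 ± 7.10), CEBPA (21.1 ± 8.85), GFI1 (18.6 ± 6.26), IRF8 (10.2 ± 4.49), CEBPE (5.36 ± 4.58), RUNX1 (4.68 ± 2.79), CEBPB (4.53 ± 2.35) and KLF4 (0.569 ± 0.217). Of the 9 steps between neighbours in this order, that between CEBPB and KLF4 was in the same direction in 6 of 6 libraries. GFI1 lay above IRF8 and IRF8 above CEBPE in 5 of 6, and each of the first 4 steps held in 4 of 6. Farther apart in the order, MYB lay above CEBPA and above GFI1, and SPI1 above GFI1, in 6 of 6 libraries, while MYB lay above SPI1 and MYC above CEBPA in 5 of 6 and MYC above GFI1 in 4 of 6. CEBPE, RUNX1 and CEBPB likewise changed places, with CEBPE above RUNX1 in 2 of 6 and RUNX1 above CEBPB in 3 of 6. MYC led MYB in mean FPKM in SUPV3L1 knockdown, and MYB led MYC in PNPT1 knockdown. RUNX1 stood high in CPM and low in FPKM, with exons that together cover 15574 bases against 1554 to 5493 bases for the other 9.

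**Figure D4:**
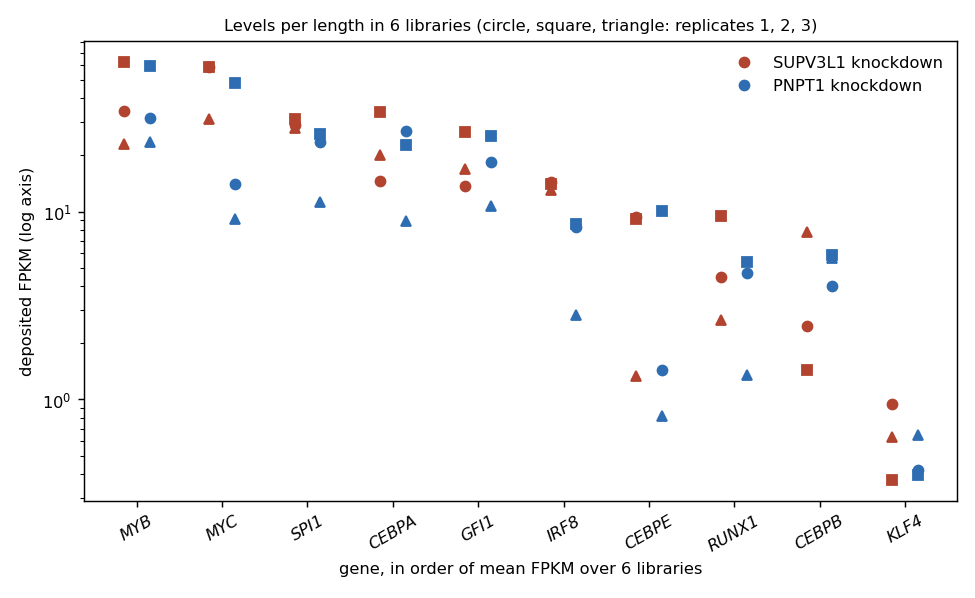
Deposited FPKM (vertical log axis) of the 10 genes in order of their mean over the 6 libraries, SUPV3L1 knockdown in red and PNPT1 knockdown in blue, 1 point per library. The ranges of neighbouring genes overlap along the order, apart from KLF4, whose highest value, 0.940, lies below the lowest of CEBPB, 1.43.

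The J2 antibody recognises double-stranded RNA, but whether the RNA of the 10 factors was itself double-stranded was not tested. The strand setting of the counting is not given either. Genes that overlap the 10 factors or lie within 5000 bases of them were therefore examined in GENCODE 29 (GRCh38). Of 20 such genes, 19 were in the files, and 7 of these overlapped a factor on the opposite strand, 4 of them within exons. Those 4 were CEBPB-AS1 (231 shared exonic bases), MYB-AS1 (103), CTD-2540B15.11 (659) and CTD-2540B15.7 (482), the last 2 within CEBPA. None had more than 13 counts in a library, so the counts of the antisense partners were small beside those of CEBPA and MYB, while those of CEBPB-AS1, 3, 13 and 5 in SUPV3L1 knockdown and 1, 6 and 0 in PNPT1 knockdown, stood beside 37 to 184 counts of CEBPB. Reads in a shared stretch may be left uncounted as ambiguous, or be given to either gene, and their part in the levels was not tested.

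Of these neighbours, 3 passed the filter and none was called. CEBPA-AS1, which starts 293 bases from CEBPA and runs the other way, was at 2.38, 3.77 and 4.98 CPM with SUPV3L1 knockdown, against 2.89, 6.64 and 3.58 CPM in PNPT1 knockdown, a log2 fold change of -0.25 ± 0.55 (SE). RP11-750H9.5, 4572 bases upstream of SPI1 on its strand, was at 3.04, 12.5 and 1.95 CPM with SUPV3L1 knockdown, against 2.29, 3.49 and 0.768 CPM in PNPT1 knockdown, highest in the library where SPI1 was highest. Without that library, its log2 fold change of 1.35 was 0.13. MYBPC3, 2158 bases downstream of SPI1, was at 1.89, 1.13 and 1.08 CPM with SUPV3L1 knockdown, against 0.0995, 1.22 and 0 CPM in PNPT1 knockdown.

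A further 5 lists of related genes gave the setting of the 10 factors, and no member of any list was called by edgeR. At an unadjusted p under 0.05 there were 2 of 37 other transcription factors, 3 of 20 PU.1 and C/EBP targets, 2 of 19 MYC targets and 0 in the 2 remaining lists. Over all genes tested, 4.09% lay under that value. DESeq2 called 1 gene in these lists, LYZ, and 18 of 13275 over the whole table. Of 46 other haematopoietic transcription factors, 37 were measured, 20 with a log2 fold change above 0 and 17 below, and a median of 0.05. RUNX2, a relative of RUNX1, was at 114, 107 and 91.4 CPM with SUPV3L1 knockdown, against 209.7, 143 and 158 CPM in PNPT1 knockdown, without overlap (log2 fold change -0.71 ± 0.31, SE). NR4A1, an immediate early nuclear receptor, was at 1.81, 0.660 and 2.38 CPM with SUPV3L1 knockdown, against 0.896, 1.66 and 49.9 CPM in PNPT1 knockdown, so that its log2 fold change of -3.39 was 0.32 without PNPT1 knockdown replicate 3. ETS1, an ETS-family factor, was at 38.4, 6.79 and 11.2 CPM with SUPV3L1 knockdown, against 3.48, 12.0 and 3.33 CPM in PNPT1 knockdown, with a log2 fold change of 1.55 that was 0.49 without SUPV3L1 knockdown replicate 1.

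Partners and regulators of the factors, such as the RUNX1 partner CBFB, the MYC partner MAX and the GFI1 corepressor KDM1A, had 20 of 21 members measured, 8 above 0 and 12 below, with a median of -0.07. TRIB2, a pseudokinase that promotes loss of C/EBPα, was at 23.3, 5.47 and 4.76 CPM with SUPV3L1 knockdown, against 2.49, 8.99 and 1.28 CPM in PNPT1 knockdown. Its log2 fold change of 1.34 was 0.22 without SUPV3L1 knockdown replicate 1. JUN, a subunit of AP-1, was at 76.5 CPM in PNPT1 knockdown replicate 3 and between 5.57 and 15.8 CPM in the other 5 libraries, and its log2 fold change of -1.47 was 0.84 without that library. HDAC1, a histone deacetylase, was at 59.6 to 69.6 CPM with SUPV3L1 knockdown, against 69.3, 59.2 and 165 CPM in PNPT1 knockdown, and without PNPT1 knockdown replicate 3 its log2 fold change of -0.62 was -0.03.

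Genes known as targets of PU.1 and C/EBP factors had 20 of 24 members measured, 17 above 0 and 3 below, with a median of 0.26. LYZ (lysozyme) was at 1493, 344 and 1331 CPM with SUPV3L1 knockdown, against 36.6, 180.1 and 144 CPM in PNPT1 knockdown, with a log2 fold change of 3.14 ± 0.70 (SE) that DESeq2 called (Benjamini-Hochberg adjusted p = 0.0017, between 1.25e-08 and 0.999 over its alternatives). CSF1R, the receptor for macrophage colony-stimulating factor, was at 16.3, 12.4 and 5.63 CPM with SUPV3L1 knockdown, against 1.39, 3.14 and 0 CPM in PNPT1 knockdown, and ITGAM (CD11b) at 16.3, 1.32 and 3.03 CPM, against 2.69, 0.786 and 0.512 CPM in the same groups. The SPI1 level itself differed by 1.33-fold between the groups. In SUPV3L1 knockdown replicate 2, where SPI1 and CEBPA were highest, LYZ was lower than in the other 2 libraries of its group. SPI1 lay between only 75.5 and 82.4 CPM in that group, and a link of LYZ to the level of SPI1 or CEBPA was not tested. Without SUPV3L1 knockdown replicate 1, the log2 fold change of ITGAM was 0.63, against 2.30 with all libraries.

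Targets of MYC had 19 of 20 members measured, 13 above 0 and 6 below, with a median of 0.21. POLR1B, a subunit of RNA polymerase I, was at 55.7, 60.8 and 47.6 CPM with SUPV3L1 knockdown, against 14.8, 44.4 and 9.72 CPM in PNPT1 knockdown, and NOP16, a nucleolar protein gene, at 23.9, 21.6 and 11.0 CPM, against 2.09, 13.9 and 3.33 CPM in the same groups. Both had their highest PNPT1 knockdown value in replicate 2, as MYC did, the library most like SUPV3L1 knockdown replicate 2 over all genes tested. NPM1 (nucleophosmin) went the other way, at 499, 607 and 491 CPM with SUPV3L1 knockdown, against 719, 503 and 2003 CPM with PNPT1 knockdown. Without PNPT1 knockdown replicate 3, its log2 fold change of -1.01 was -0.21. Of 6 targets of MYB, 4 were measured, 2 above 0 and 2 below, with a median of -0.06: CDK6, a cell cycle kinase, was at 173, 333 and 176 CPM with SUPV3L1 knockdown, against 159.6, 335 and 136 CPM in PNPT1 knockdown, highest in replicate 2 of both groups as MYB was. CCNB1 (cyclin B1) was instead lowest in replicate 2 of both groups, at 28.4 CPM with SUPV3L1 knockdown and 27.9 CPM with PNPT1 knockdown. MAT2A, which makes S-adenosylmethionine, was highest in SUPV3L1 knockdown replicate 2 (191 CPM) and in PNPT1 knockdown replicate 3 (332 CPM). CCNB1 and MAT2A had log2 fold changes of -0.45 ± 0.44 and -0.21 ± 0.51 (SE). A link of these targets to the level of MYC or MYB was not tested.

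**Figure D5:**
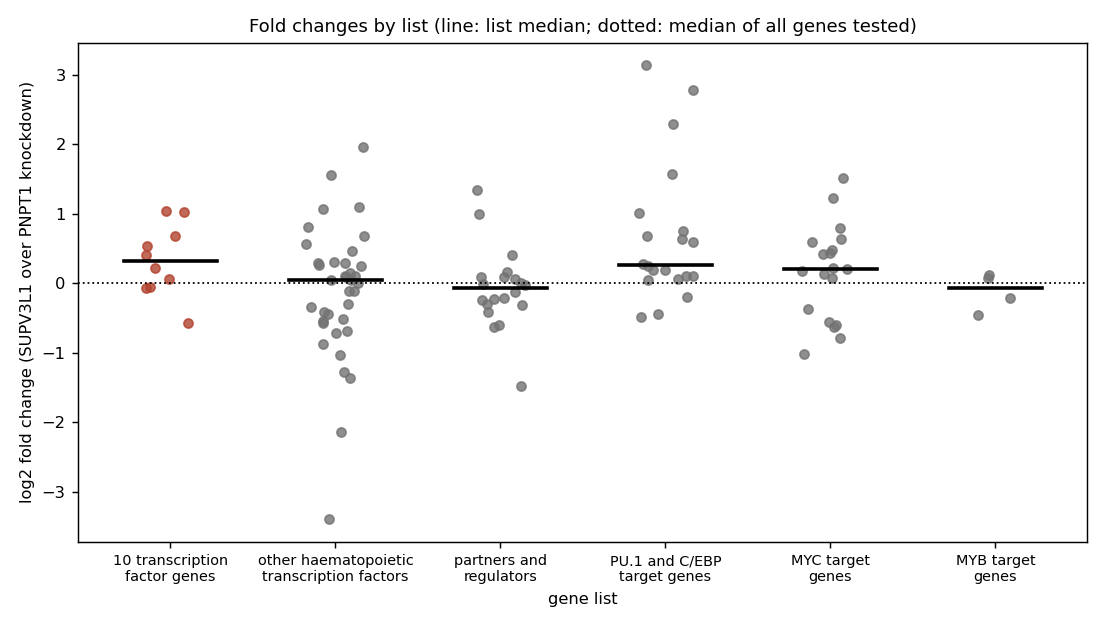
Log2 fold changes, SUPV3L1 knockdown over PNPT1 knockdown (vertical axis), of the measured members of 6 lists (horizontal axis), with 1 point per gene, a black line at each list's median and a dotted line at the median of all genes tested. The 10 factors (red) have a median of 0.31 and lie between -0.58 and 1.05, and the highest point among the PU.1 and C/EBP target genes is LYZ at 3.14.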

How the data were processed

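RNA bound by the J2 antibody was made into strand-specific libraries and sequenced, per the labels' protocols. The authors deposited raw counts per Ensembl gene for each library and an FPKM table whose columns carry the sample titles. HISAT2 2.2.1, SAMtools 1.14, StringTie 2.1.4, HTSeq and GRCh38 are named by the submitters' processing notes. Annotation release, strand setting and FPKM tool were not given in the sources used here. The 5 summary lines (84.0% to 92.9% of entries, mostly alignments that were not unique) were left out.

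Counts were tested with edgeR 4.0.16 (R 4.3.3), quasi-likelihood test, TMM scaling, default filter (minimum count 10, total 15), Benjamini-Hochberg adjustment over all genes, threshold 0.05. Each standard error is the fold change over the root of its F statistic. Alternatives were DESeq2 1.42.0, limma 3.58.1 on log2 of FPKM plus 0.1 or 1, other scalings and filters, and leaving out each library. The fit was tested on simulated data. Protein sequences were not used here, so a planned comparison of the C/EBP proteins was not made. The 10 genes and the lists were chosen with earlier results of these data known. In the lists, the 3 members with the smallest p were named, other genes by the closeness of their centred log2 CPM (mean of 50 counts or more); a further likeness result is not reported here. Replicates were numbered in accession order, and no 2 libraries agreed within sampling noise. Sequences are from RefSeq (GRCh38.p14), positions from GENCODE 29.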

Additional observations from a re-analysis of the deposited data

How the results depend on the processing

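No paired analysis was possible because the replicate numbers follow accession order and the labels pair no libraries. None of the 10 factors was called under any of the 14 alternatives (strict filter of 50 counts: 8 of the 10 tested), and the log2 fold changes of IRF8, MYC, SPI1 and CEBPE stayed above 0 and that of CEBPB below 0 in each fit that tested them. IRF8 and SPI1 did not overlap under 4 scalings or in FPKM. The number of all genes called, 0 of 13275, was 18 of 13275 with DESeq2, 187 of 28015 with no filter, and 0 to 1 when each library was left out. At an unadjusted p under 0.05 the 543 genes became 316 with library totals only, 1552 with no filter, 341 with FPKM and a pseudocount of 0.1, and 218 to 2098 when each library was left out. In the target list of PU.1 and C/EBP, DESeq2 called 1 of 20 genes (LYZ) and edgeR with no filter called 4 of the 24 listed. The 4 included LYZ (Benjamini-Hochberg adjusted p = 1.25e-08, log2 fold change 3.17) and CSF1R (2.79, adjusted p = 0.000885, otherwise up to 0.999). Of the 46 other transcription factors, of which 2 had no counts, no filter called 3, among them NR4A1 (-3.32). The number of the 10 factors without overlap was 2 to 4, and the number of separating IRF8 ratios 3 to 5, when each library was left out. Leaving out a library cannot lower these numbers, apart from small changes in scaling for the first, so the ranges are no check of the separation. The matching shares of all genes tested were not computed. Scaling by library totals only gave log2 fold changes of 0.022 for GFI1, 0.047 for MYB and 0.083 for MAT2A, and FPKM (pseudocounts 0.1 and 1) gave 0.10 and 0.092 for GFI1, 0.052 and 0.051 for MYB and 0.26 and 0.24 for MAT2A, all below 0 in the main fit. The median of all genes moved to 0.11 with no filter and 0.17 with FPKM and a pseudocount of 0.1, where GFI1 and MYB lay below that median. At a pseudocount of 1 the median was 0.085, with GFI1 above it and MYB below. When each library was left out, log2 fold changes lay between -0.16 and 0.45 for CEBPA, -0.37 and 0.14 for GFI1, -0.28 and 0.80 for KLF4, -0.50 and 0.22 for MYB, -0.065 and 0.85 for RUNX1, -3.97 and 0.32 for NR4A1, -1.98 and 0.84 for JUN, -0.76 and 0.17 for CCNB1, -0.63 and 0.49 for MAT2A, -0.27 and 0.61 for CDK6, and -0.51 and 0.20 for CEBPA-AS1. The cause of these changes was not tested. The overlap and ratio counts were chosen after seeing the data. Depth limits KLF4 and CEBPE most, whose lowest libraries had 16 and 11 counts.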

Other observations

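Values outside the comparisons concern the factors as a group. The 10 genes together took 0.0961%, 0.141% and 0.0707% of the counts assigned to genes in SUPV3L1 knockdown replicates 1, 2 and 3, and 0.0745%, 0.115% and 0.0455% in PNPT1 knockdown replicates 1, 2 and 3. Replicate 2 was the highest library of both groups. CD14, a monocyte surface receptor and a target of C/EBP factors that did not pass the filter, had 822, 8 and 16 counts in the SUPV3L1 knockdown libraries and 4, 5 and 3 counts in the PNPT1 knockdown libraries, so that 1 library held nearly all of its counts. IRF8 in that library, at 96.9 CPM, was within a few CPM of the other SUPV3L1 knockdown libraries. A link between IRF8 and CD14 was not tested. CD14 was named after its values were seen.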
